A study of Mus musculus with 4 samples.

Results

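Angiomotins and genes of the Hippo pathway were examined in RNA-Seq data of HT-22 cells, an immortalized mouse line derived from hippocampal neurons. The 10 genes were the angiomotin family members Amotl1 and Amotl2, the co-activators Yap1 and Wwtr1, the transcription factor Tead1, the kinases Lats1, Lats2, Stk3 and Stk4, and the LIM-domain gene Ajuba. They were taken from a list of pathway genes, and they were selected on values of these same 4 libraries, in which Amotl2 showed an exchange between its transcripts. The levels of the 10 genes are therefore a description and not independent evidence. All 10 genes had values, among 11502 genes in all, and they were represented by 35 of the 25822 transcripts that matched the annotation.

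The study asked how overexpression of PGC-1α, a co-activator that drives mitochondrial biogenesis, alters gene expression in these cells with and without oxygen and glucose deprivation (OGD). The Ctrl group received negative control lentivirus and is labelled wild type, the PGC-1α group received lentivirus that overexpresses PGC-1α, and both kinds of cells were selected with puromycin. The Ctrl+OGD and PGC-1α+OGD groups were the same kinds of cells after OGD, which lasted 2 h in medium lacking serum and glucose, and a recovery of 24 h. Only 1 library was made per group. The differences have no replicate check for this reason, and no SD or p value is given. HT-22 is a single cell line, and nothing states whether the lentiviral cells were a pool or a clone.

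FPKM, a fragment count scaled to transcript length and library size, was taken as the unit of the table, and the level of a gene was the sum of its deposited transcripts. Differences are given as log2 fold changes of FPKM + 1, so that changes of low genes are understated, and 1.5-fold or more was counted as higher or lower. Genes or transcripts were counted from a mean of 1 FPKM over the libraries upwards, which left 10604 genes, all 10 described here among them, and 18301 transcripts, of which 22 belonged to the 10 genes. The column totals ranged from 331892 to 353381 FPKM, the number of reads per library is unknown, and the precision of a single value cannot be given. The overexpressed gene Ppargc1a had 0.900 FPKM in Ctrl, 0.103 FPKM in Ctrl+OGD, 35.1 FPKM in PGC-1α and 8.41 FPKM in PGC-1α+OGD. Of 16 neuron markers only 4 had values (Syp, Dlg4, Eno2 and Camk2a), with a summed level of 7.07 to 11.5 FPKM, and Rbfox3, Map2, Tubb3 and Snap25 were not analysed here. Of 8 fibroblast and mesenchymal markers 6 had values, with a summed level of 909 to 986 FPKM, and Vim was the highest of them in every library. Of 10 glia and microglia markers 3 had values, which summed to 7.11 to 8.31 FPKM. The part of these marker levels in the results below was not tested, and in such bulk values a change in the cells and a change in RNA per cell cannot be told apart.

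The Hippo pathway is a kinase cascade that restrains growth. The kinases MST1 (Stk4) and MST2 (Stk3) activate LATS1 and LATS2, which phosphorylate YAP and TAZ (Wwtr1) and keep them out of the nucleus, where they would otherwise drive transcription through TEAD factors. Angiomotins are scaffold proteins of cell junctions and the actin cytoskeleton that bind YAP and LATS kinases, and Ajuba is a LIM-domain protein that restrains LATS.

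The sequences below show what distinguishes the transcripts on which the results turn. All are given 5′ to 3′ on the strand of the gene, from the GENCODE M21 transcripts and in coordinates of GRCm38. Amotl2-211 and Amotl2-201 are complete models of Amotl2 (plus strand of chromosome 9) that share 4088 bases, 96.8% of the first and 94.5% of the second. Amotl2-211 has 99 more coding bases at its start, which are 33 codons, and the first 37 of them (chr9:102717050-102717086) are exon bases of no other deposited Amotl2 transcript. Capitals mark this coding stretch, which opens with the start codon.
Amotl2-211 coding start: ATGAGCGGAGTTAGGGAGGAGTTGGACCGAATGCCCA

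Stk3-202 lacks 210 coding bases of Stk3-201 (minus strand of chromosome 15), which come from 2 adjacent coding exons of 81 and 129 bases (chr15:35115565-35115645 and chr15:35114529-35114657) and make up 70 codons. The kinase domain of MST2 lies in the N-terminal part of the protein. In the first line the skipped exons are in capitals with 15 bases on each side, and the other line gives the joined flanks as Stk3-202 has them.
Stk3-201: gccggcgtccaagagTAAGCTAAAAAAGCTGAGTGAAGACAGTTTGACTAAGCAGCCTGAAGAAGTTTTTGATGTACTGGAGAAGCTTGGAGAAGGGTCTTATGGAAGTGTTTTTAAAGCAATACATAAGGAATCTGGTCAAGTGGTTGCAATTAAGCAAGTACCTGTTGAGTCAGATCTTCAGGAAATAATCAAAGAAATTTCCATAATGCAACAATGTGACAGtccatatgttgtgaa
Stk3-202: gccggcgtccaagagtccatatgttgtgaa

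Lats2-207 (minus strand of chromosome 14) leaves the coding sequence of Lats2-201 at the end. It lacks the last 480 coding bases, 160 codons, of Lats2-201, in the C-terminal part of the protein where the kinase domain lies, and has 39 other coding bases in their place (chr14:57694275-57694313). These are shown in capitals after the last 15 shared bases.
Lats2-207 coding end: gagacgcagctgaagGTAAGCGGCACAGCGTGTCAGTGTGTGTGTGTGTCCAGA

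Tead1 (plus strand of chromosome 7) has 2 neighbouring exons of 63 bases each and a further exon of 12 bases. Tead1-202 holds the exon at chr7:112842040-112842102, and Tead1-207 holds the exon at chr7:112841888-112841950 together with the 12 bases at chr7:112856053-112856064. Tead1-201, Tead1-206 and Tead1-208 hold both of the 63-base exons. Capitals mark what each of the compared transcripts has and the other lacks.
Tead1-202: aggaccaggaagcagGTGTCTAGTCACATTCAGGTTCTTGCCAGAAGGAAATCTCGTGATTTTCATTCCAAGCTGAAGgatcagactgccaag
Tead1-207: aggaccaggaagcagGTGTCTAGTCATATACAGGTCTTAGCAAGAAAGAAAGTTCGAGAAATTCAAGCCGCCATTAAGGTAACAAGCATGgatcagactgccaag

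Yap1 (minus strand of chromosome 9) has an optional coding exon of 48 bases, 16 codons (chr9:7950492-7950539), which Yap1-201 and Yap1-210 hold and Yap1-202 lacks. Capitals mark the exon.
Yap1-201: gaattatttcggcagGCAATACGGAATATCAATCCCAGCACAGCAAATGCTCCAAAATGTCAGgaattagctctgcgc
Yap1-202: gaattatttcggcaggaattagctctgcgc

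Over all 4 libraries, the highest summed level was 1.15 times (Stk4) to 2.05 times (Ajuba) the lowest, and it was 1.80 times for Amotl2, 1.66 times for Tead1 and 1.53 times for Lats2. In PGC-1α vs Ctrl, 1 of the 10 genes, Amotl2, was higher by 1.5-fold or more and none was lower, where 10.5% of all genes were past 1.5-fold. In PGC-1α+OGD vs Ctrl+OGD, 0 of 10 were past 1.5-fold against a background of 6.9%. In Ctrl+OGD vs Ctrl, 1 of 10, Ajuba, was higher, against 13.9% of all genes, and in PGC-1α+OGD vs PGC-1α 0 of 10 were past 1.5-fold, against 9.03%. These counts are near or below the background, and nothing is read from them since the genes were selected on the same libraries. The median log2 fold change of the 10 genes was 0.17, 0.08, -0.01 and -0.08 in the 4 comparisons, in the order given, where that of all genes was -0.03, -0.01, -0.02 and 0.00. Just outside the 1.5-fold limit, a log2 value of 0.58, lay Ajuba in PGC-1α vs Ctrl (0.57), Tead1 in PGC-1α+OGD vs Ctrl+OGD (0.54) and in Ctrl+OGD vs Ctrl (-0.58), and Lats2 in PGC-1α+OGD vs PGC-1α (-0.57). Since comparisons share libraries, their values are set side by side without a count of agreement.

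**Figure D1:**
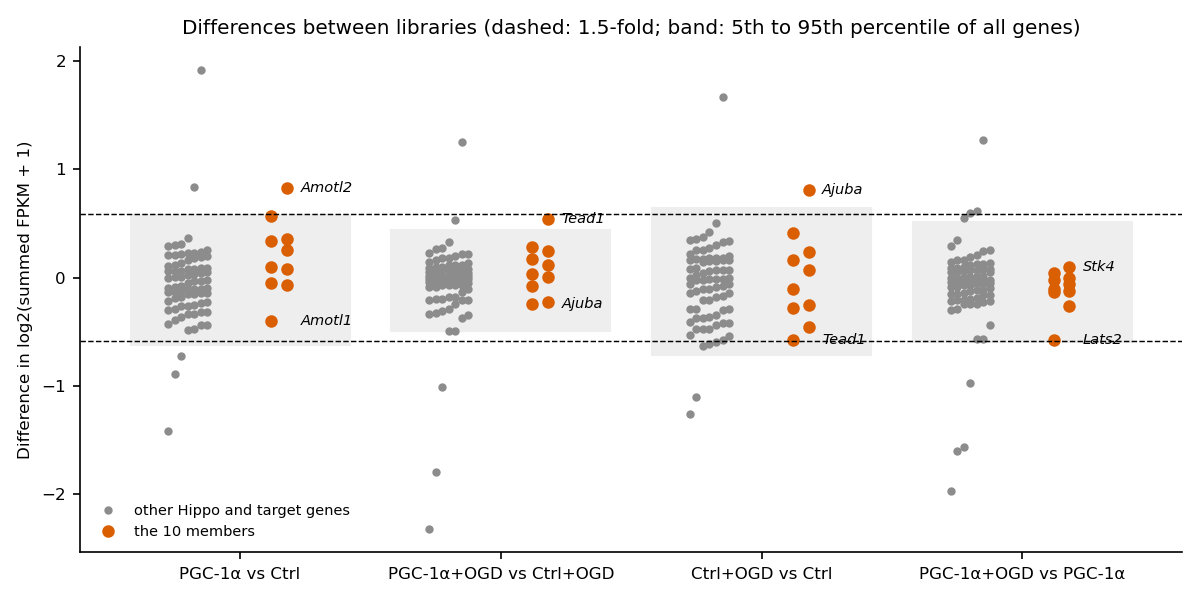
The y axis gives the difference in log2(summed FPKM + 1) for each of the 4 comparisons on the x axis, with the 10 genes as orange points (the highest and lowest named), other Hippo and target genes as grey points, dashed lines at 1.5-fold and a band from the 5th to the 95th percentile of all tested genes. Amotl2 in PGC-1α vs Ctrl (0.83) and Ajuba in Ctrl+OGD vs Ctrl (0.81) are the orange points above the upper line.

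Single transcripts were past 1.5-fold more often than summed genes in each comparison, among all transcripts as well as among those described here. Of the 22 tested transcripts, 10 were past 1.5-fold in PGC-1α vs Ctrl, 6 higher and 4 lower, where 25.4% of all transcripts were. In PGC-1α+OGD vs Ctrl+OGD it was 6 of 22 (4 higher, 2 lower) against 22.3%, in Ctrl+OGD vs Ctrl 9 of 22 (5 higher, 4 lower) against 28.1%, and in PGC-1α+OGD vs PGC-1α 8 of 22 (5 higher, 3 lower) against 25.3%. Transcripts of 1 gene share sequence, to an extent that differs between pairs, and are not independent of each other. The genes were selected on a transcript exchange in these same libraries, so nothing is read from these counts.

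An exchange was counted where a gene had 1 transcript higher and 1 lower by 1.5-fold or more in the same comparison. Of the 5 genes with 2 or more tested transcripts (Amotl2, Yap1, Tead1, Lats2 and Stk3), 4 met this in PGC-1α vs Ctrl, namely Amotl2, Tead1, Lats2 and Stk3, and 18.5% of all 4478 such genes did. In PGC-1α+OGD vs Ctrl+OGD, Amotl2 and Lats2 met it (background 18.9%). In Ctrl+OGD vs Ctrl these were Amotl2 and Tead1 (19.4%), and for PGC-1α+OGD vs PGC-1α these were Amotl2, Lats2 and Stk3 (19.4%). Amotl2 was thus the gene that met it in each of the 4 comparisons, and since this exchange was part of how the genes were selected, nothing is read from these counts.

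The transcript with the highest level was another one in 2 of the 9 genes with several transcripts in PGC-1α vs Ctrl (Amotl2 and Stk3), against 19.5% of 6405 genes. It was another one in 3 genes in PGC-1α+OGD vs Ctrl+OGD (Amotl2, Tead1 and Stk3) against 18.7%, in 2 genes in Ctrl+OGD vs Ctrl (Amotl2 and Tead1) against 19.9%, and in 1 gene in PGC-1α+OGD vs PGC-1α (Amotl2) against 20.8%. Amotl1, Yap1, Wwtr1, Lats1, Lats2 and Stk4 kept their highest transcript in all 4 libraries, as 66.5% of the 6405 genes did.

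**Figure D2:**
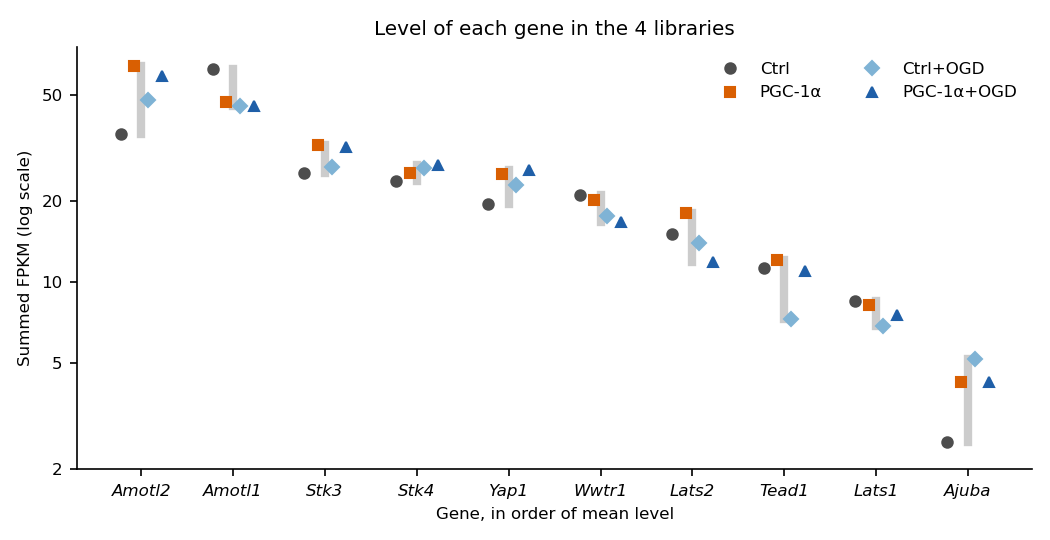
Summed FPKM on a log scale is plotted for each of the 10 genes in order of mean level, with 1 point per library and a grey bar from the lowest to the highest library. Amotl2 and Amotl1 lie above the other 8 genes in each library, and Ajuba lies lowest.

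Amotl2 (ENSMUSG00000032531, chr9:102716672-102733418) encodes a scaffold of cell junctions that binds YAP. Its summed level was 35.7 FPKM in Ctrl, 48.0 FPKM in Ctrl+OGD, 64.1 FPKM in PGC-1α and 58.6 FPKM in PGC-1α+OGD. Ctrl was the lowest library, and both libraries with PGC-1α overexpression were above both without. The log2 fold change of the sum was 0.83 in PGC-1α vs Ctrl and 0.28 in PGC-1α+OGD vs Ctrl+OGD.

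Under this sum, Amotl2-201 and Amotl2-211 replaced each other crosswise. Amotl2-201 stood at 43.1 FPKM in PGC-1α+OGD and 25.1 FPKM in Ctrl, and was listed at 0 in PGC-1α and in Ctrl+OGD. Amotl2-211, with the extra coding start printed above, had 49.3 FPKM in PGC-1α and 35.9 FPKM in Ctrl+OGD, but 0.00940 FPKM in PGC-1α+OGD and 0.0427 FPKM in Ctrl. The exchange thus followed neither PGC-1α nor OGD alone, since Ctrl went with PGC-1α+OGD and PGC-1α went with Ctrl+OGD. Amotl2-201 made up 70.2% of the sum in Ctrl and 73.6% in PGC-1α+OGD, and Amotl2-211 made up 76.9% in PGC-1α and 74.9% in Ctrl+OGD. Between 77.5 and 79.9 percentage points of the sum moved between transcripts in each comparison, where the median gene moved 8.78 to 9.67 points. Of the 6405 genes with several transcripts, 97.1% to 97.8% moved less. Amotl2 was selected on this exchange, so nothing is read from its place among them. The same crosswise pattern of highest transcripts was found in 171 of these genes, which is 2.67%.

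The deposited transcripts of Amotl2 begin at several positions, and the 6 others varied less. Amotl2-208, an incomplete model that begins upstream of both main transcripts, had 6.55 FPKM in Ctrl, 6.59 FPKM in Ctrl+OGD, 9.63 FPKM in PGC-1α and 10.3 FPKM in PGC-1α+OGD. It was thus present in all 4 libraries, and its level went with PGC-1α rather than with the exchange. Amotl2-209 had 0.333, 2.57, 0.811 and 1.44 FPKM in the same order, and the remaining incomplete models (Amotl2-203, Amotl2-210, Amotl2-213 and Amotl2-214) lay between 0 and 2.45 FPKM. Since most bases of Amotl2-201 and Amotl2-211 are shared, their levels rest on how the fragments were divided between them, and the program that did so is not given in the sources used here. The listing at 0 is that of a transcript estimate. A 0 in one library together with a value of at least 10 FPKM in another was found for 0.813% of all transcripts, and for 2 of the 35 described here, Amotl2-201 and Stk3-202, a limit chosen after the values were seen.

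**Figure D3:**
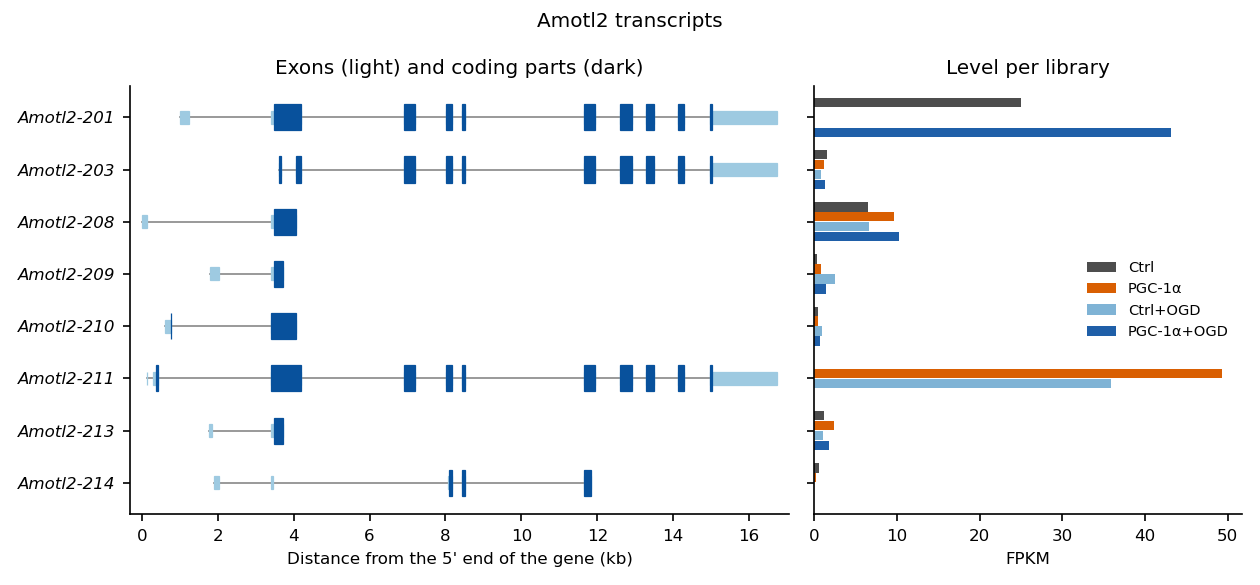
The left panel draws the 8 deposited Amotl2 transcripts by distance from the 5′ end of the gene in kb (exons light, coding parts dark), and the right panel gives their FPKM in each library as bars. Amotl2-201 has bars in Ctrl and PGC-1α+OGD and Amotl2-211 in PGC-1α and Ctrl+OGD, while the exons of these 2 transcripts from the main coding exon onwards coincide.

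Amotl1 (ENSMUSG00000013076, chr9:14541966-14645056, minus strand), the relative of Amotl2, had 62.4 FPKM in Ctrl, and 45.2, 47.1 and 45.3 FPKM in Ctrl+OGD, PGC-1α and PGC-1α+OGD. Ctrl was the highest library and the other 3 lay within a narrow range, with a log2 fold change of -0.46 in Ctrl+OGD vs Ctrl, -0.40 in PGC-1α vs Ctrl and 0.00 in PGC-1α+OGD vs Ctrl+OGD. Amotl1-201 made up 96.3% to 99.1% of the sum, and at most 2.84 percentage points moved between its transcripts. Amot, the remaining angiomotin gene and not among the 10, was far lower, with 5.52 FPKM in Ctrl, 4.14 FPKM in Ctrl+OGD, 4.78 FPKM in PGC-1α and 4.20 FPKM in PGC-1α+OGD, and it was likewise highest in Ctrl.

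Yap1 (ENSMUSG00000053110, chr9:7931999-8004596, minus strand) encodes the co-activator YAP. It had 19.5 FPKM in Ctrl, 23.1 FPKM in Ctrl+OGD, 25.3 FPKM in PGC-1α and 26.2 FPKM in PGC-1α+OGD, so that Ctrl was again the lowest library. Its log2 fold change was 0.36 in PGC-1α vs Ctrl and 0.17 in PGC-1α+OGD vs Ctrl+OGD. Yap1-202, without the 48-base exon printed above, was the main transcript in every library with 77.0% to 84.1% of the sum. The transcripts with this exon, Yap1-201 and the incomplete model Yap1-210, made up 18.3% in Ctrl and 22.8% in Ctrl+OGD. They made up 15.9% in PGC-1α and 23.0% in PGC-1α+OGD, slightly more after OGD in both kinds of cells. In Ctrl cells the rise lay in Yap1-210 (5.33% in Ctrl, 11.8% in Ctrl+OGD), while Yap1-201 had 12.9% and 11.1%. For PGC-1α and PGC-1α+OGD, Yap1-201 had 5.44% and 11.6%, and Yap1-210 had 10.5% and 11.4%. An opposite-strand gene, Gm20416, overlaps exons of Yap1. The library kit keeps strand, but whether it was used in counting is not given in the sources used here.

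Wwtr1 (ENSMUSG00000027803, chr3:57455649-57575910, minus strand) encodes TAZ, the relative of YAP. Its summed level was 21.2, 17.6, 20.2 and 16.7 FPKM in Ctrl, Ctrl+OGD, PGC-1α and PGC-1α+OGD, lower after OGD in both kinds of cells (log2 fold change -0.25 and -0.26). In the comparisons of PGC-1α with control, the log2 fold changes of the sum were -0.07 without OGD and -0.08 after it. Wwtr1-201 held nearly the whole sum in 3 libraries. In PGC-1α, Wwtr1-202, whose annotated coding sequence is 171 bases longer at the start, had 3.20 FPKM or 15.9% of the sum, and at most 0.111 FPKM in each of the other libraries.

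Tead1 (ENSMUSG00000055320, chr7:112679318-112906807) encodes a transcription factor through which YAP and TAZ act. Its level was 12.03 FPKM in PGC-1α, 11.0 FPKM in PGC-1α+OGD and 11.3 FPKM in Ctrl. In Ctrl+OGD it had 7.25 FPKM, which stood alone as the lowest. The log2 fold change was 0.54 in PGC-1α+OGD vs Ctrl+OGD and -0.58 in Ctrl+OGD vs Ctrl, both short of 1.5-fold, and 0.08 in PGC-1α vs Ctrl.

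Its 9 transcripts shifted as well. Tead1-202 had 0.114 FPKM in Ctrl, and 2.35, 2.39 and 2.47 FPKM in Ctrl+OGD, PGC-1α and PGC-1α+OGD, so that Ctrl stood apart from the other 3. Tead1-204 was highest in Ctrl at 3.46 FPKM, and had 1.52 FPKM in Ctrl+OGD, 0.643 FPKM in PGC-1α and 1.66 FPKM in PGC-1α+OGD. Tead1-207 had 4.21 FPKM in Ctrl, 1.30 FPKM in Ctrl+OGD, 4.11 FPKM in PGC-1α and 2.86 FPKM in PGC-1α+OGD. It was the highest Tead1 transcript except in Ctrl+OGD, where it was Tead1-202. Read by exon, the transcripts with the 63-base exon of Tead1-202 summed to 5.07, 4.55, 6.15 and 6.07 FPKM in the order just used. Those with the 63-base exon of Tead1-207 summed to 4.80, 1.41, 5.37 and 3.86 FPKM. The lower Tead1 level in Ctrl+OGD therefore lay mostly in the transcripts with the latter exon. The 12-base exon was in 90.3% of the Tead1 sum in Ctrl, and in 56.8%, 70.1% and 60.1% in Ctrl+OGD, PGC-1α and PGC-1α+OGD.

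Of the kinases, Stk3 (ENSMUSG00000022329, chr15:34875496-35178921, minus strand) encodes MST2, at the head of the cascade. Its sum was 25.5 FPKM in Ctrl, 26.8 FPKM in Ctrl+OGD, 32.4 FPKM in PGC-1α and 32.0 FPKM in PGC-1α+OGD. Both libraries with PGC-1α overexpression were above both without, with log2 fold changes of 0.33 and 0.25. Stk3-201, with the exons printed above, had 8.68 FPKM in Ctrl, 10.2 FPKM in Ctrl+OGD, 32.4 FPKM in PGC-1α and 20.3 FPKM in PGC-1α+OGD, and was past 1.5-fold in both comparisons of PGC-1α with control (log2 fold change 1.79 and 0.93). Stk3-202, which skips them, had 16.8, 16.7 and 11.7 FPKM in Ctrl, Ctrl+OGD and PGC-1α+OGD and was listed at 0 in PGC-1α. Stk3-201 thus made up 34.0% and 37.9% of the sum in the 2 libraries without PGC-1α overexpression. It made up the whole sum in PGC-1α and 63.5% of it in PGC-1α+OGD. All 2471 bases of Stk3-202 are also bases of Stk3-201. These shares, and the listing at 0 in 1 library, therefore rest on how the fragments were divided between the 2 transcripts. In contrast to Amotl2, the highest Stk3 transcript was Stk3-201 in both libraries with PGC-1α overexpression and Stk3-202 in both without. Such a pattern was seen in 2.26% of the 6405 genes. Pairing by OGD was seen in 3.23% of them, and the crosswise pairing of Amotl2 in 2.67%. The shares still differed with OGD, since 36.5 percentage points moved in PGC-1α+OGD vs PGC-1α.

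Stk4 (ENSMUSG00000018209, chr2:164070322-164155524), which encodes the related kinase MST1, varied least. It had 23.8, 26.7, 25.5 and 27.4 FPKM in Ctrl, Ctrl+OGD, PGC-1α and PGC-1α+OGD, the highest library being 1.15 times the lowest. Stk4-201 held 94.7% to 98.2% of the sum.

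Lats2 (ENSMUSG00000021959, chr14:57689662-57758388, minus strand) encodes a kinase that phosphorylates YAP and TAZ. Its sum was 15.1 FPKM in Ctrl, 13.98 FPKM in Ctrl+OGD, 18.1 FPKM in PGC-1α and 11.8 FPKM in PGC-1α+OGD. PGC-1α was the highest and PGC-1α+OGD the lowest library, so that the log2 fold change was 0.25 without OGD and -0.22 after it. Lats2-201 had 9.80, 11.8, 16.5 and 7.26 FPKM in the same order. Lats2-207, with the other coding end printed above, had 4.95, 1.48, 1.66 and 4.58 FPKM. The share of Lats2-207 was 32.9% and 38.7% in Ctrl and PGC-1α+OGD and 9.16% and 10.6% in PGC-1α and Ctrl+OGD. These are the same pairs of libraries as for Amotl2, although Lats2-201 remained the highest transcript throughout. No share over all genes was taken for such a match, and nothing is read from it. Lats2 shares exon bases on the same strand with Gm49361, and fragments from there cannot be told apart.

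Lats1 (ENSMUSG00000040021, chr10:7681214-7716460), its relative, had 8.51 FPKM in Ctrl, 6.84 FPKM in Ctrl+OGD, 8.18 FPKM in PGC-1α and 7.53 FPKM in PGC-1α+OGD. Both libraries after OGD were below both without it, with log2 fold changes of -0.28 and -0.11. Its 2 deposited transcripts have the same coding sequence, and Lats1-202 made up 92.9% to 94.0% of the sum.

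Ajuba (ENSMUSG00000022178, chr14:54567472-54577558, minus strand) was the lowest of the 10 genes and had 1 deposited transcript. It had 2.53 FPKM in Ctrl, 5.17 FPKM in Ctrl+OGD, 4.23 FPKM in PGC-1α and 4.22 FPKM in PGC-1α+OGD. Ctrl was the lowest library, as for Amotl2, Yap1, Stk3 and Stk4. The log2 fold change was 0.81 in Ctrl+OGD vs Ctrl and 0.57 in PGC-1α vs Ctrl, and it was -0.24 in PGC-1α+OGD vs Ctrl+OGD.

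**Figure D4:**
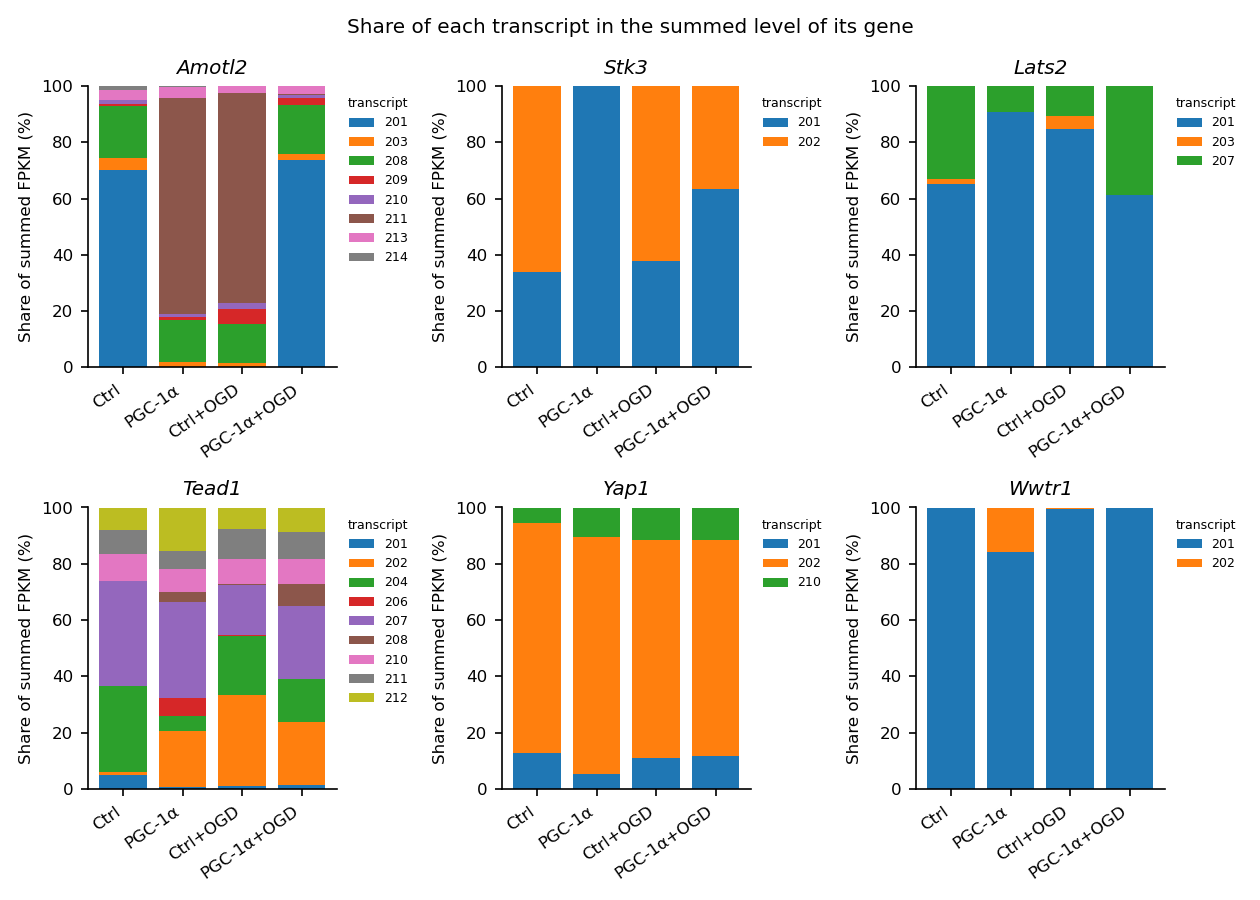
Stacked bars give the share (%) of each deposited transcript in the summed FPKM of Amotl2, Stk3, Lats2, Tead1, Yap1 and Wwtr1, with 1 bar per library. The bars of Amotl2 pair Ctrl with PGC-1α+OGD and PGC-1α with Ctrl+OGD, and in Stk3 the share of Stk3-201 is larger in the 2 libraries with PGC-1α overexpression.

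In order of mean level per transcript length, the genes were Amotl2 (51.6 FPKM), Amotl1 (49.98), Stk3 (29.2), Stk4 (25.9), Yap1 (23.5), Wwtr1 (18.9), Lats2 (14.8), Tead1 (10.4), Lats1 (7.77) and Ajuba (4.04). The ranges over the 4 libraries overlapped between all neighbours in this order except between Amotl1 and Stk3 and between Lats1 and Ajuba. Both angiomotins were thus the highest of the 10 genes, and their order between each other differed between libraries. As for the movement between transcripts, Stk3 moved 66.0 percentage points in PGC-1α vs Ctrl but 3.87 in Ctrl+OGD vs Ctrl. Tead1 moved 17.0 to 36.1 points and Lats2 22.3 to 29.5 points over the 4 comparisons. Wwtr1 moved 15.9 points in each of the 2 comparisons with the PGC-1α library and at most 0.616 in the others, and Yap1, Amotl1, Stk4 and Lats1 stayed at or below 7.47 points, under the median gene.

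**Figure D5:**
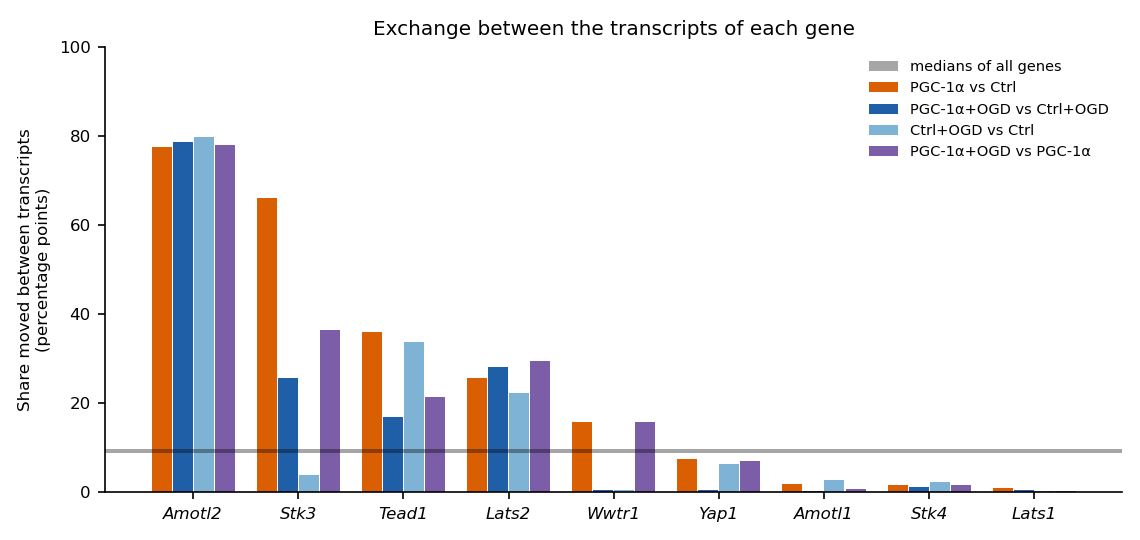
Bars give the percentage points of the summed FPKM that moved between the transcripts of each of the 9 genes with several transcripts, with 1 bar per comparison, and the grey line marks the medians of 6405 genes. Amotl2 stands near 78 points in each comparison, and the bars of Stk3 range from 3.87 to 66.0 points.

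The promoters were searched for the core of the motif that TEAD factors bind, since Hippo genes include known targets of their own pathway. The letters were CATTCC on either strand, which is GGAATG on the other strand, in windows from 250 bases before to 50 after the RefSeq start (GRCm38.p6). The RefSeq table used here gave promoters for 8 of the 10 genes, and those of Tead1 and Stk3 were not analysed here. At least 1 match was present in 5 of the 8 (Amotl2, Yap1, Wwtr1, Lats2 and Ajuba), and there was none in Amotl1, Lats1 and Stk4. Of all 27025 genes with a promoter entry, 16.6% held a match, and of all 32851 promoters 14.7% did. A match is a description of the letters and not a binding site. The Amotl2 window (chr9:102717554-102717853) covers the start of Amotl2-201 but not that of Amotl2-211 (chr9:102716802), which was not searched. Lats2 also has an entry without a match (chr14:57734369-57734668). The Ajuba window (chr14:54577612-54577911) lies upstream of the start of its deposited transcript (chr14:54577558) and does not cover it. The match of Amotl2 is shown with its surroundings (chr9:102717727-102717756, plus strand, motif in capitals), since it lies 65 bases before a RefSeq start and within the first exon of Amotl2-201, and that of Ajuba (chr14:54577830-54577859, minus strand) is the first of 2 in its promoter.
Amotl2 promoter: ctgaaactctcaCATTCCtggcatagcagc
Ajuba promoter: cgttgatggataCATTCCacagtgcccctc

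Of 75 other genes of the pathway and its partners, 64 had values and 62 were tested. In PGC-1α vs Ctrl 0 were higher and 2 lower by 1.5-fold or more, in PGC-1α+OGD vs Ctrl+OGD 1 was higher and 3 lower, in Ctrl+OGD vs Ctrl 1 was higher and 4 lower, and in PGC-1α+OGD vs PGC-1α 2 were higher and 2 lower. These are 3.23%, 6.45%, 8.06% and 6.45% of the list, below the shares of all genes given above, and the medians were -0.09, 0.01, -0.02 and -0.03. Sav1 and Nf2, scaffolds of the cascade, and Amot were among the genes short of 1.5-fold in every comparison. Those past it in a comparison of PGC-1α with control were Taok1, Mob1a and Map4k2 of the kinase cascade, Nedd4l and Limd1 of the angiomotin partners, and Mob4 of the STRIPAK complex, and Mob4 alone was higher.

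Taok1, a kinase that activates MST kinases, had 14.2 FPKM in Ctrl, 10.4 FPKM in Ctrl+OGD, 7.20 FPKM in PGC-1α and 7.08 FPKM in PGC-1α+OGD (log2 fold change -0.89 in PGC-1α vs Ctrl). Nedd4l, a ubiquitin ligase of the family that targets angiomotins, had 22.0, 19.9, 12.9 and 16.0 FPKM in the same order (-0.72 in PGC-1α vs Ctrl). Both were lower in PGC-1α than in Ctrl or Ctrl+OGD. After OGD, Mob1a, an adaptor of LATS kinases, was lower in PGC-1α+OGD (3.18 FPKM) than in Ctrl+OGD (13.5 FPKM), on 1 of its 6 annotated transcripts. Map4k2, a kinase that acts on LATS beside MST kinases, had 1.25 FPKM in PGC-1α+OGD and 3.53 FPKM in Ctrl+OGD. Limd1, a LIM-domain relative of Ajuba, had 15.7 FPKM in Ctrl+OGD and 2.33 to 4.25 FPKM in the other 3 libraries, on 1 of 5 annotated transcripts. Ctrl+OGD was also the highest library for Ajuba. Mob4, a subunit of the phosphatase complex STRIPAK that acts on MST kinases, was at 9.63 FPKM in PGC-1α+OGD and 3.46 FPKM in Ctrl+OGD. The difference lay in Mob4-205 (8.29 FPKM in PGC-1α+OGD, 0.675 FPKM in Ctrl+OGD), while Mob4-201 and Mob4-202 were lower in PGC-1α+OGD.

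The highest gene of each of these lists was short of 1.5-fold in all 4 comparisons. These were Map4k4 of the kinase cascade (142 to 206 FPKM), Nedd4 of the angiomotin partners (222 to 309 FPKM), Fgfr1op2 of STRIPAK (63.4 to 82.7 FPKM), Dlg1 of the polarity genes (44.1 to 60.0 FPKM), Ywhae of the proteins that hold or degrade YAP (256 to 295 FPKM) and Vgll3 of the nuclear partners (12.8 to 19.2 FPKM). The genes lower in Ctrl+OGD vs Ctrl, named after their values were seen, were Map4k2, the junction scaffold Tjp1, the TEAD factor Tead3 and the TEAD cofactor Vgll4. Tead3 had 5.64 FPKM in Ctrl and 1.77 FPKM in Ctrl+OGD, and Vgll4 had 13.9 and 5.94 FPKM. Like Tead1, both had their lowest level in Ctrl+OGD. The other nuclear partners with values were above Ctrl in Ctrl+OGD but short of 1.5-fold. Tead2 had 13.1 FPKM in Ctrl+OGD against 9.78 to 11.5 FPKM in the other libraries, and the log2 fold change in Ctrl+OGD vs Ctrl was 0.27 for Tead4 and 0.17 for Vgll3. The median of the 5 nuclear partners was 0.17.

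Genes that YAP and TAZ are known to activate were past 1.5-fold in both directions. Of 20 listed, 14 were tested, and Ccn2 was not analysed here. In PGC-1α vs Ctrl 2 were higher (Ccdc80 and Rbms3) and 1 lower (Gadd45a), in PGC-1α+OGD vs Ctrl+OGD 0 were past 1.5-fold, in Ctrl+OGD vs Ctrl 1 was lower, and in PGC-1α+OGD vs PGC-1α 1 was higher and 2 lower. In the same order these are 21.4%, 0%, 7.14% and 21.4% of the 14 target genes, where 10.5%, 6.9%, 13.9% and 9.03% of all genes were past 1.5-fold. The medians were 0.03, -0.06, 0.02 and -0.09. Gadd45a, a stress-induced growth arrest gene and the highest of the list, had 129 FPKM in Ctrl, 83.3 FPKM in Ctrl+OGD, 47.7 FPKM in PGC-1α and 72.7 FPKM in PGC-1α+OGD. Rbms3, an RNA-binding protein gene, had 5.78 FPKM in PGC-1α and at most 1.14 FPKM elsewhere. It met the mean of 1 FPKM only through the PGC-1α library, where Rbms3-208 alone had 4.71 FPKM. Its calls are therefore no support, and nothing is read from the shares of 21.4%, which include it. Ccdc80, which encodes a matrix protein, had 5.74 FPKM in PGC-1α and 2.27 to 2.77 FPKM elsewhere.

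The summed Amotl2 profile was set against those of 8218 genes whose mean was 5 FPKM or more. The smallest distances between profiles of log2(FPKM + 1), each less its own mean over the 4 libraries, were those of Nudt19 (0.09), St6galnac4 (0.09), Ppif (0.10), Cyc1 (0.10) and Ndufs3 (0.10), where the median gene had 0.71. Cyc1 and Ndufs3 encode subunits of the respiratory chain. Cyc1 had 43.1 FPKM in Ctrl, 58.6 FPKM in Ctrl+OGD, 72.0 FPKM in PGC-1α and 71.2 FPKM in PGC-1α+OGD, with Ctrl lowest and Ctrl+OGD between, as in Amotl2. With 4 libraries such a likeness is a description only.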

How the data were processed

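Poly(A) RNA of the 4 HT-22 libraries was prepared with a stranded kit and sequenced from both ends. The authors aligned the reads to GRCm38 with HISAT2 2.1.0 (from the submitters' processing notes) and deposited 1 table of values for 25889 transcripts. The deposited values were taken as FPKM from their range and totals. The unit, the program that gave them, its annotation and filter are not given in the sources used here, and every transcript reached at least 0.500 in 1 or more libraries. Columns were assigned to groups by sample title.

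Transcripts were matched by identifier to GENCODE M21 and summed per gene. Log2(FPKM + 1) values were compared without further scaling between 2 libraries at a time, with a mean of at least 1 FPKM and a limit of 1.5-fold, the fold criterion of the study. No test was possible. The members and gene lists were chosen with earlier results of these data known. The genes named are the 10 genes, genes of the other pathway and target lists past 1.5-fold in either comparison of PGC-1α with control, the highest gene of each of these lists, and the 5 genes nearest to Amotl2 in profile. Amot, Sav1, Nf2, Tjp1 and the remaining nuclear partners of TEAD were named outside this rule, after their values were seen. The marker lists fell outside the rule and are given as sums. Coding differences were taken from the 2 complete transcripts of highest mean per gene. Alternatives were pseudocounts of 0.1 and 0.01, no filter, a mean of at least 5 FPKM, median ratio, upper quartile and equal-total scaling, a fold of 2, and the highest transcript in place of the sum. Summing only complete transcripts was added after the data were seen. The fold changes of summed genes and the median ratio scaling were checked on simulated data. The exchange and share steps for transcripts were not. Calculations ran in Python 3.11.15 with pandas 2.3.3 and numpy 2.4.6, and plots in matplotlib 3.10.9.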

Additional observations from a re-analysis of the deposited data

Results flagged for a closer look

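Several differences ran in opposite directions with and without OGD, or with and without PGC-1α, by 1.5-fold or more on each side. With 1 library per group, the difference between the 2 contrasts was not tested in any of these cases.

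For Amotl2-201 the log2 fold change was -4.70 in PGC-1α vs Ctrl and 5.46 in PGC-1α+OGD vs Ctrl+OGD, a difference of 10.17. The same libraries compared for OGD gave -4.70 in Ctrl+OGD vs Ctrl and 5.46 in PGC-1α+OGD vs PGC-1α, which is again 10.17, since both differences are built from the same 4 values. For Amotl2-211 the difference was -10.78 in either arrangement. These log2 values depend on the pseudocount, since Amotl2-201 is listed at 0 in PGC-1α and Ctrl+OGD.

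For Lats2-207 the difference was 2.33, with -1.16 without and 1.17 with OGD, and also 2.33 when OGD was compared within each kind of cell. Lats2-201 was opposite, with 0.69 without and -0.63 with OGD, a difference of -1.33. Tead1-204 was lower after OGD in Ctrl cells (-0.82) and higher in PGC-1α cells (0.69), which differ by 1.51. Of the target genes, summed Gadd45a was lower after OGD in Ctrl cells (-0.63) and higher in PGC-1α cells (0.60), which differ by 1.22.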

How the results depend on the processing

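No paired analysis was possible because each group had 1 library. The exchange of Amotl2 transcripts was met under every alternative run for it. This was fixed in advance, since the exchanged values are at or near 0 in some libraries and high in others. How the fragments were divided between transcripts was not varied, so this is no support for the exchange. Counts of the 10 genes past 1.5-fold are small and moved by single genes. In PGC-1α vs Ctrl the count of 1 became 2 with pseudocounts of 0.1 and 0.01 and with median ratio or upper quartile scaling (Ajuba was added), 0 at a fold of 2, and 3 when the highest transcript stood for the gene. In PGC-1α+OGD vs Ctrl+OGD the count of 0 became 1 with both smaller pseudocounts (Tead1) and 4 with the highest transcript. In Ctrl+OGD vs Ctrl the count of 1 became 2 with both smaller pseudocounts and with equal totals (Tead1), 0 at a mean of at least 5 FPKM and at a fold of 2, and 3 with the highest transcript. For PGC-1α+OGD vs PGC-1α it went from 0 to 1 with both smaller pseudocounts and with equal totals (Lats2), and 3 with the highest transcript. Amotl2 was reversed for PGC-1α+OGD vs Ctrl+OGD, with a log2 fold change of -5.19 with the highest transcript against 0.28 for the sum, by the construction of that alternative, which leaves out Amotl2-201.

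Of the transcripts, the count in PGC-1α vs Ctrl became 5 (from 10) at a mean of at least 5 FPKM. In PGC-1α+OGD vs Ctrl+OGD it became 10 and 11 (from 6) with pseudocounts of 0.1 and 0.01, and 3 at a fold of 2. In Ctrl+OGD vs Ctrl it became 2 (from 9) at a mean of at least 5 FPKM, and for PGC-1α+OGD vs PGC-1α 5 (from 8) at that mean and 5 at a fold of 2. The median of the target genes for PGC-1α+OGD vs PGC-1α was 0.10 instead of -0.09 at a mean of at least 5 FPKM. No scaling moved the median of all genes by over 0.1. Depth is unknown, so no limit of detection can be given.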
